A study of Mus musculus with 2 samples.

Results

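Reg3b, Reg3g, Reg3a, Reg1, Reg4 and Pglyrp1 were 6 of the 31053 genes counted in single cells of the proximal small intestine of APC mice. They were found by gene symbol in the count tables of both libraries, and all 6 had a row. They were chosen by measured values of these data, since Reg3g and Pglyrp1 had led 1 sub-cluster of enterocyte-like cells in an earlier clustering of the same libraries, and their levels are therefore described with no test. The 2 mice formed 1 group, VilCreER Apc fl/fl, in which the villin promoter drives a tamoxifen-dependent Cre recombinase in intestinal epithelium that removes both copies of Apc. Each mouse received 2 injections of 2 mg tamoxifen, 24 h apart, and was sampled on day 4. Age and sex were not given in the sources used here. No uninduced mouse was part of the series, so each comparison is between cells of the same mouse, and whether Apc loss moves any of these genes cannot be asked of these libraries.

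Reg proteins are small secreted lectins. Reg3b and Reg3g are made by intestinal epithelium in response to bacteria and bind bacterial surfaces, Reg3a and Reg1 are best known from the exocrine pancreas, and Reg4 is known from secretory and enteroendocrine cells of the gut. Pglyrp1 is an unrelated secreted protein that binds bacterial peptidoglycan and is stored in neutrophil granules. Fabp1, a fatty-acid-binding protein of absorptive enterocytes, and Lyz1, the lysozyme of Paneth cells, served as landmarks beside them.

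Of these genes, 4 lay in 1 cluster on chromosome 6 of the GRCm38 genome. Reg3b (ENSMUSG00000071356) spanned chr6:78370657-78373466 on the plus strand, Reg3a (ENSMUSG00000079516) chr6:78380709-78383827 on the plus strand, Reg1 (ENSMUSG00000059654) chr6:78422711-78428667 on the plus strand and Reg3g (ENSMUSG00000030017) chr6:78466269-78468872 on the minus strand. With Reg3d and Reg2, which lie between them, the 6 Reg genes there covered 98.2 kb. Reg4 (ENSMUSG00000027876) lay apart at chr3:98222156-98236748 and Pglyrp1 (ENSMUSG00000030413) at chr7:18871331-18890459, both on the plus strand.

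The proximal promoters of Reg3b, Reg3g and Pglyrp1 are shown because these genes were carried by enterocyte-like cells of both mice. Each line holds the 150 bases before the RefSeq transcript start on GRCm38.p6, read along the gene's strand, at chr6:78370735-78370884 for Reg3b, chr6:78468875-78469024 for Reg3g and chr7:18884540-18884689 for Pglyrp1. The windows of Reg3b and Pglyrp1 lie inside the gene spans given above, which begin before the RefSeq start used here. Windows of 250 bases reach further and can hold exons of other transcripts. Capitals mark the matches to 3 motifs searched on both strands: TATAAAA, known as the core promoter element that sets the start of transcription, TTCNNNGAA, the palindrome bound by STAT factors, and AGATAA, bound by GATA factors.
Reg3b: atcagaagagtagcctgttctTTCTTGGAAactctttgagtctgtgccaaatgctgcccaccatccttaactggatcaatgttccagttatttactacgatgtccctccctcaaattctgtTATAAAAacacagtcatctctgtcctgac
Reg3g: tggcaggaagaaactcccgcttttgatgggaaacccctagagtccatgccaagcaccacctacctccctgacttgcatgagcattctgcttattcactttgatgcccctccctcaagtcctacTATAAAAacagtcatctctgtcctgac
Pglyrp1: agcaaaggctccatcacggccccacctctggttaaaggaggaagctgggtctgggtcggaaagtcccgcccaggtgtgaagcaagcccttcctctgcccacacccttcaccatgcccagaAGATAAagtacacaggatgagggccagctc
Reg3b and Reg3g both held TATAAAA, 29 and 27 bases before the start, and Reg3b also held TTCNNNGAA 129 bases before it. Pglyrp1 held no TATAAAA and had AGATAA 30 bases before the start. Over the 250 bases before the start, these motifs were present in 4.98%, 7.02% and 9.99% of 32851 mouse promoters, respectively. Among the other members, Reg1 held TATAAAA at 30 bases and Reg4 held AGATAA at 101 bases before the start. The 250-base windows of Reg3b and Reg3g were 68.9% identical, whereas the other 14 pairs of members lay between 46.4% and 53.5%. A match describes letters and is no evidence of binding.

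The libraries held 85670711 UMIs (unique molecular identifiers, each standing for 1 captured transcript) over 9645 barcodes in mouse 1 and 38716743 UMIs over 8800 barcodes in mouse 2. After limits on genes, UMIs, mitochondrial and haemoglobin content 7941 and 6957 cells remained, at median depths of 4381 and 2803 UMIs. Libraries shared 24 barcodes, 16 of them kept in both. Clusters were named from marker genes, with all 6 members, Fabp1 and Lyz1 left out of the clustering. Most cells were leukocytes (6528 and 6523 cells). There were 593 and 144 enterocyte-like cells, 115 and 29 crypt-progenitor-like cells and 31 and 33 Paneth-like cells, the last a mixed cluster that also held goblet and enteroendocrine markers, with a Ptprc UMI in 22.6% and 0% of its cells. Mitochondrial transcripts made up a median of 0.0327% and 0% of UMIs in enterocyte-like cells and 1.87% and 2.67% in leukocytes. A pancreatic acinar-like cluster of 186 cells, with all 14 acinar markers, came from mouse 1 alone. The enterocyte-like class held a UMI of all 16 enterocyte markers in each mouse, as did the leukocytes of mouse 1. These markers made up 5.18% and 7.80% of UMIs in enterocyte-like cells, against 0.0108% and 0.00373% in leukocytes. Apc stood at 79.2 and 49.9 counts for each 1000000 UMIs of the cells summed (CPM) in enterocyte-like cells, a 3′ count that does not tell whether the deletion took place.

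Reg3b, a bactericidal lectin of the gut surface, was found mainly in acinar-like and enterocyte-like cells in mouse 1, with 56.3% and 32.9% of its UMIs in kept cells, and in enterocyte-like cells in mouse 2, with 89.98%. Its UMIs in enterocyte-like cells came to 2020 CPM for mouse 1, with a 95% Poisson interval of 1977 to 2063 CPM, and to 3826 CPM for mouse 2 (3678 to 3978), a mean of 2923 ± 1277 CPM (SD, n = 2 mice). Intervals here and below cover counting error only. At least 1 UMI was seen in 269 of 593 cells of mouse 1 (45.4%, Clopper-Pearson 95% interval 41.3 to 49.5%) and in 52 of 144 cells of mouse 2 (36.1%, 28.3 to 44.5%). Leukocytes, which should lack the transcript, had a Reg3b UMI in 22.9% of cells of mouse 1 and 0.521% of those of mouse 2, at median depths of 4340 and 2778 UMIs against 5106 and 3052 in enterocyte-like cells. With each cell thinned to 1000 UMIs, the expected share was 26.6% and 28.2% of enterocyte-like cells and 5.50% and 0.156% of leukocytes. The level in enterocyte-like cells was 68.9 times the leukocyte level in mouse 1 and 2606 times in mouse 2. Both sides of this ratio differed between mice, at 29.3 against 1.47 CPM in leukocytes and 2020 against 3826 CPM in enterocyte-like cells.

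Reg3g, which acts on Gram-positive bacteria, was the member whose level in enterocyte-like cells was closest between mice. It stood at 883 CPM in mouse 1 (855 to 912) and 962.5 CPM in mouse 2 (889 to 1040), a mean of 923 ± 56.1 CPM (SD, n = 2 mice). It was seen in 168 cells (28.3%, 24.7 to 32.1%) and 41 cells (28.5%, 21.3 to 36.6%), and thinned shares were 16.5% and 18.95%. In leukocytes it was at 4.24 and 0.594 CPM, seen in 3.19% and 0.215% of cells, so that enterocyte-like cells were 208 and 1622 times higher. Of all Reg3g UMIs in kept cells of mouse 1, 66.5% fell in enterocyte-like and 21.9% in acinar-like cells.

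**Figure D1:**
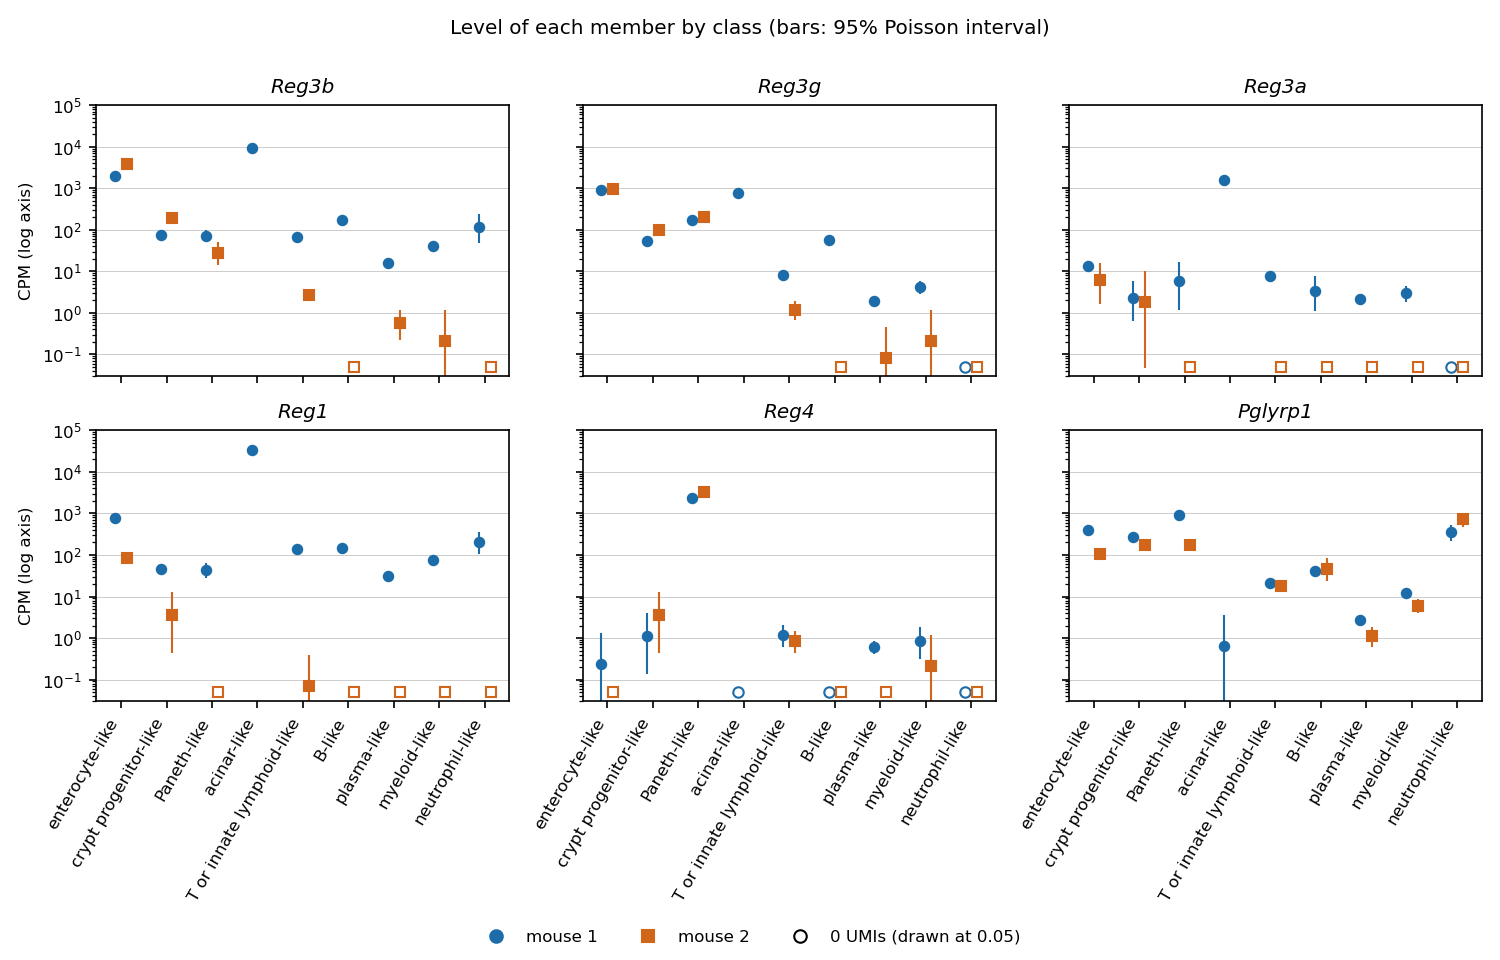
Level of each member by cell class, in CPM on a log axis, with 1 point per mouse, bars for the 95% Poisson interval (counting error only) and open symbols for 0 UMIs. Reg3b and Reg3g were high in enterocyte-like cells of both mice (2020 and 3826, 883 and 962.5 CPM), Reg1 and Reg3a in acinar-like cells of mouse 1 (33468 and 1567 CPM), and Reg4 in the mixed Paneth-like cluster (2362 and 3211 CPM). Within that cluster, cells led by enteroendocrine markers held 67.8% and 88.6% of the Reg4 UMIs.

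Reg3b and Reg3g differed between the 4 sub-clusters of enterocyte-like cells, which are called here by their leading genes. In the sub-cluster led by Ada and Gda (68 and 45 cells), genes known from the villus tip, Reg3b was lowest, at 230.5 CPM in mouse 1 and 66.1 CPM in mouse 2. The S100g and Rbp2 led cells (244 and 50) had 1303 and 1487 CPM and the Apoa1 and Cyp3a13 led cells (202 and 27) had 1817 and 2022 CPM. The S100g and Oat led cells (79 and 22), in which Pglyrp1 and Reg3g were themselves among the 10 leading genes, were highest, at 3440 and 10525 CPM. A Ptprc UMI was seen in 17.7% and 4.55% of them, against at most 5.45% of the cells of any other sub-cluster. This order was the same in both mice, and none of the Poisson intervals of neighbours in it overlapped within a mouse. Those intervals cover counting error only and leave out the spread between cells. In mouse 2, 62.7% of the Reg3b UMIs of enterocyte-like cells were in 2 cells. The highest cell, in the S100g and Oat led group, held 882 of the 1829 UMIs of that group. Whether the order holds without such cells was not tested. For Reg3g the values in the same order of sub-clusters were 39.5, 474, 861 and 1517 CPM in mouse 1 and 44.0, 282, 1036 and 2135 CPM in mouse 2. Median depth followed a similar course, from 1688 and 1607 UMIs in the Ada and Gda led cells to 8541 and 5660 UMIs in the S100g and Oat led cells. Thinned shares of Reg3b carriers ran from 15.1% to 31.6% in mouse 1 and from 7.74% to 41.6% in mouse 2.

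Within these classes the transcripts were held by a few cells. In mouse 1, 8 of 593 enterocyte-like cells held 50% of the Reg3b UMIs, and in mouse 2 it was 2 of 144 cells. The 10 highest cells held 55.1% and 87.1% of Reg3b, 58.1% and 84.9% of Reg3g, and 13.1% and 35.6% of Fabp1. A cell with any Reg3b had a median of 2 UMIs in mouse 1 and 7.5 in mouse 2, while the highest cells had 1313 and 882. The high level of the S100g and Oat led cells of mouse 2 rested on these cells, since its highest cell held 882 of 1829 Reg3b UMIs. CPM values of these genes are therefore sums dominated by single cells, which the Poisson interval does not cover.

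**Figure D2:**
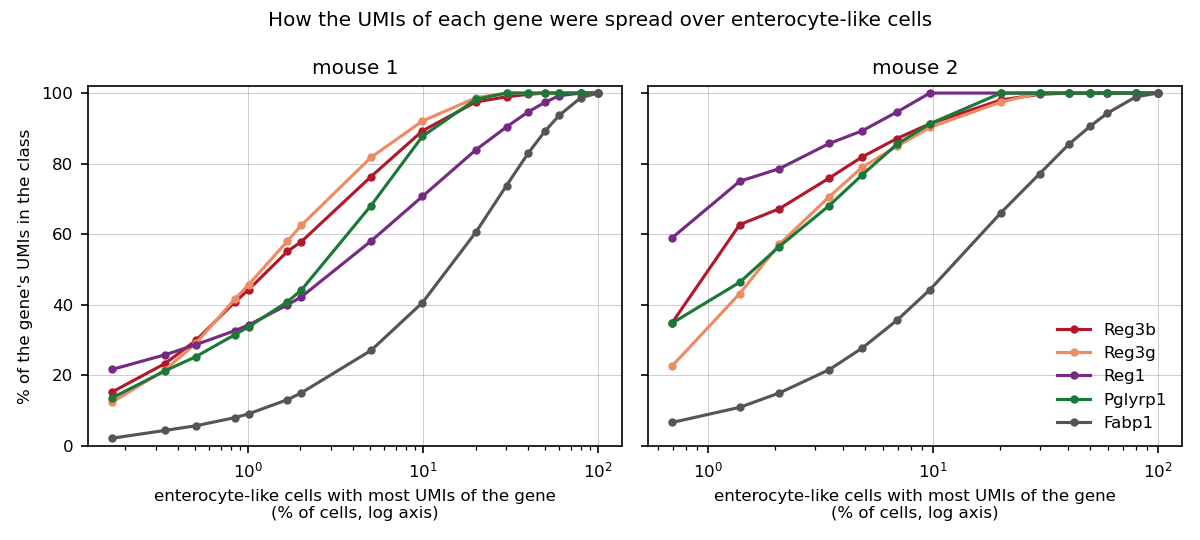
Cumulative share (%) of a gene's UMIs against the share (%, log axis) of enterocyte-like cells, ranked from the highest cell, for Reg3b, Reg3g, Reg1, Pglyrp1 and Fabp1 in each mouse. Curves of the members rise more steeply than that of Fabp1: the 10 highest cells held 55.1% and 87.1% of Reg3b UMIs but 13.1% and 35.6% of Fabp1 UMIs.

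Reg1 and Reg3a were pancreatic genes in mouse 1. Reg1, a lectin of acinar secretions, stood at 33468 CPM in acinar-like cells of mouse 1 and was seen in 185 of 186 of them (99.5%). These cells held 86.9% of the Reg1 UMIs kept in mouse 1. Reg3a stood at 1567 CPM there (1505 to 1630), seen in 129 cells (69.4%), with 89.2% of its UMIs in these cells. Reg3b was also high, at 9332 CPM (9182 to 9485) in 177 of 186 cells, and Reg3g was at 785 CPM (742 to 830). The acinar-like cells had 1 UMI of Pglyrp1 and none of Reg4, which allows up to 1.61% of cells with a Reg4 UMI at their median depth of 3278 UMIs and sets no limit on cells that express it below detection. There is no acinar-like class in mouse 2 to set beside these values.

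Outside the acinar-like cells, Reg1 differed between mice. In enterocyte-like cells it was at 763 CPM in mouse 1 (737 to 790; 64.1% of cells) and at 84.6 CPM in mouse 2 (63.9 to 110; 9.03% of cells). In mouse 1, 703 of 3239 UMIs were in 1 cell, and in mouse 2, 33 of 56 UMIs were in 1 cell. Leukocytes of mouse 1 held Reg1 in 38.6% of cells (54.7 CPM), and those of mouse 2 held 1 UMI in 6523 cells. Reg3a had 56 UMIs in enterocyte-like cells of mouse 1 (13.2 CPM) and 4 in mouse 2 (6.04 CPM), against 3.11 CPM and 0 UMIs in leukocytes. The fold over leukocytes was 4.25 in mouse 1, and none is given for mouse 2, where it would rest on 4 UMIs.

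Reg2, a neighbouring gene of the pancreas, had no UMI in mouse 2 and is given beside the members in mouse 1. There were 1.72 Reg1 UMIs for each Reg2 UMI in acinar-like cells of mouse 1, and 1.19 to 1.36 in T- or innate-lymphoid-like, plasma-like, B-like and myeloid-like cells. In enterocyte-like cells the ratio was 6.996, at 2.66 in the S100g and Rbp2 led, 3.17 in the Ada and Gda led, 13.4 in the Apoa1 and Cyp3a13 led and 28.0 in the S100g and Oat led cells. The same ratio for Reg3b was 0.480 in acinar-like cells, 0.663 in leukocytes and 18.5 in enterocyte-like cells. It was 1.47 in B-like cells. The ratios of enterocyte-like cells lay above that of acinar-like cells for both genes, with 703 of the 3239 Reg1 UMIs in 1 cell. Those of leukocytes lay below it for Reg1 and above it for Reg3b. The source of these UMIs was not tested.

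Reg4 UMIs were found mostly in the Paneth-like cluster. Its level there was 2362 CPM in mouse 1 (2233 to 2497) and 3211 CPM in mouse 2 (3037 to 3393), a mean of 2786 ± 600 CPM (SD, n = 2 mice), seen in 18 of 31 cells (58.1%, 39.1 to 75.5%) and 16 of 33 cells (48.5%, 30.8 to 66.5%). These cells held 92.4% and 98.7% of the Reg4 UMIs of all kept cells. Enterocyte-like cells held 1 UMI in mouse 1 and none in the 144 cells of mouse 2, which allows up to 2.08% of cells with a Reg4 UMI at this depth, and crypt-progenitor-like cells held 2 UMIs in each mouse. In leukocytes Reg4 was at 0.705 and 0.406 CPM, in 0.720% and 0.184% of cells. In each mouse 2 cells held 50% of the UMIs of the class, with 558 and 537 UMIs in the highest cell.

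To see which cells of this mixed cluster held Reg4, each was put under the marker list (Paneth, goblet or enteroendocrine) with the most UMIs in it. In 4 and 5 cells the second list had at least 50% as many UMIs as the first, so these groups are ranges and not types. Cells led by enteroendocrine markers (7 and 12) held 67.8% and 88.6% of the Reg4 UMIs, those led by Paneth markers (11 and 8) 19.2% and 1.18%, and those led by goblet markers (13 in each mouse) 13.01% and 10.2%. Few cells set these shares. A Reg4 UMI was seen in 3 of 7 and 5 of 12 cells led by enteroendocrine markers, in 9 of 11 and 5 of 8 led by Paneth markers and in 6 of 13 led by goblet markers in each mouse. Reg3g of this cluster lay elsewhere, with 77.5% and 90.1% of its UMIs in cells led by Paneth markers. Reg3g stood at 619 and 2085 CPM in those cells, on 69 and 73 UMIs, and at 169 and 205 CPM over the whole cluster. Reg3b had 38 and 11 UMIs in the cluster.

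Pglyrp1, the peptidoglycan-binding member, was carried by more kinds of cell than the lectins. In enterocyte-like cells it was at 398.5 CPM in mouse 1 (380 to 418; 25.1% of cells) and 104 CPM in mouse 2 (81.1 to 132; 13.9% of cells). It was concentrated in the S100g and Oat led sub-cluster, at 1297 CPM in mouse 1 (1229 to 1366) and 368 CPM in mouse 2 (284 to 470), where 66 of 79 cells (83.5%) and 15 of 22 cells (68.2%) held it. The other 3 sub-clusters lay between 6.59 and 104.5 CPM in mouse 1 and between 0 and 15.1 CPM in mouse 2. In crypt-progenitor-like cells it was at 276 CPM (252 to 301) and 173 CPM (140 to 211), seen in 80 of 115 and 22 of 29 cells at median depths of 12025 and 18151 UMIs, and the thinned shares were 17.0% and 18.03%. In Paneth-like cells it was at 909 and 177 CPM, but 361 of the 479 UMIs of mouse 1 were in 1 cell. Of the Paneth-like cells of mouse 2, those led by Paneth markers had 914 CPM on 32 UMIs (6 of 8 cells), more than the S100g and Oat led cells of that mouse. The order of the crypt-progenitor-like cells and all enterocyte-like cells differed between mice.

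Pglyrp1 was also a transcript of leukocytes. Neutrophil-like cells (18 and 9 cells) had 350 CPM (217 to 535) and 715.5 CPM (471.5 to 1041), on 21 and 27 UMIs. B-like cells had 41.3 and 46.2 CPM and the Ctla4 and Lef1 led T- or innate-lymphoid-like cells 46.1 and 45.6 CPM. Plasma-like cells had 2.68 and 1.12 CPM and myeloid-like cells 12.3 and 5.99 CPM. Intervals of B-like cells (31.7 to 52.9 and 23.1 to 82.7 CPM) lay above those of plasma-like cells (2.25 to 3.17 and 0.614 to 1.88 CPM) in both mice. Over all leukocytes Pglyrp1 was at 7.42 and 10.7 CPM, and in mouse 2 41.9% of its UMIs were in T- or innate-lymphoid-like cells.

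Crypt-progenitor-like cells had low levels of the Reg genes. Reg3b was at 76.2 CPM in mouse 1 (63.8 to 90.2) and 193 CPM in mouse 2 (158 to 233), where 53 of 106 UMIs were in 1 cell. Reg3g was at 52.3 and 96.4 CPM. Reg1 was at 45.5 CPM in mouse 1 (36.1 to 56.6), an interval that overlapped that of leukocytes (53.0 to 56.5), and at 2 UMIs in mouse 2, and Reg3a had 4 UMIs and 1 UMI. Unnamed cells led by Krt18 and Pigr, with median depths of 768 and 844.5 UMIs, had Reg3b at 526 and 763 CPM.

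The background of the members in leukocytes was compared with that of other genes of the same cells. In mouse 2, Reg3b in leukocytes stood at 0.0384% of its level in enterocyte-like cells, Reg3g at 0.0617%, Reg1 at 0.0369% on 1 UMI and Fabp1 at 0.0418%. The median over the 9 enterocyte markers with at least 100 UMIs in these cells was 0.0398% (range 0.0295 to 0.242%), and these members lay within that range. Pglyrp1 stood at 10.3%, above all 9 markers. In mouse 1 the median over 16 markers was 0.297% (0.158 to 16.3%), with Fabp1 at 0.224%, Reg3g at 0.480%, Reg3b at 1.45%, Pglyrp1 at 1.86%, Reg1 at 7.17% and Reg3a at 23.5%. Set against the acinar-like cells of mouse 1, the leukocyte level was 0.164% for Reg1, 0.198% for Reg3a, 0.314% for Reg3b and 0.540% for Reg3g. The 14 acinar markers had a median of 0.178% (0.140 to 0.248%), so Reg1 and Reg3a were within their range and Reg3b and Reg3g above it. Reg4 in leukocytes was at 0.0298% and 0.0127% of its Paneth-like level, below all of the 12 and 11 Paneth markers (medians 0.142% and 0.214%).

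Some leukocytes held more than a background of single UMIs. In mouse 1, 1 B-like cell had 129 of the 255 Reg3b UMIs and 69 of the 83 Reg3g UMIs of its class, and the 7 Reg3b UMIs of Ctla4 and Lef1 led cells of mouse 2 were all in 1 cell. Whether these barcodes held an epithelial cell as well was not tested. Reg3b, Reg3g and Reg3a are related copies, and reads that match more than 1 gene equally well may be lost from each, which was not tested either.

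**Figure D3:**
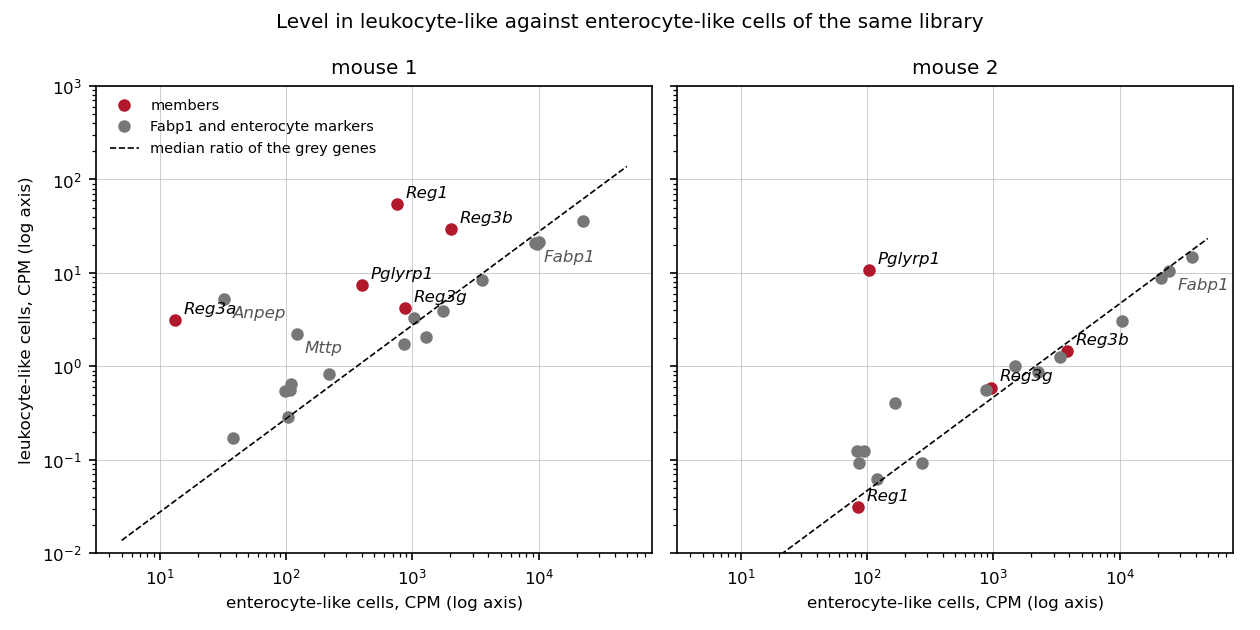
Level in leukocytes against level in enterocyte-like cells of the same mouse, both in CPM on log axes, for members (red) and for Fabp1 and enterocyte markers (grey). Genes with at least 50 UMIs in enterocyte-like cells and 1 in leukocytes are drawn, the dashed line is the median ratio of the grey genes, and Pglyrp1 lay above it in both mice (1.86% and 10.3% of the enterocyte-like level), as did Reg3g (0.480% and 0.0617%), and in mouse 1 also Reg3a, Reg1 and Reg3b (23.5%, 7.17% and 1.45%).

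Co-detection was counted in the 739 and 206 cells of the 3 epithelial-like classes. Reg3b and Reg3g were often seen in the same cells. Of 326 Reg3b carriers of mouse 1, 165 (50.6%, 45.1 to 56.2%) also held Reg3g, against 11.6% (8.70 to 15.1%) of the cells without Reg3b. In mouse 2 it was 46 of 66 (69.7%, 57.2 to 80.4%) against 10.7% (6.12 to 17.1%). Seen from the other side, 77.5% of 213 and 75.4% of 61 Reg3g carriers held Reg3b, against 30.6% and 13.8% of the other cells. After thinning to 1000 UMIs, 45.2% and 54.5% of Reg3b carriers held Reg3g, against 5.54% and 6.04%. Cells share their library and differ in depth, so these are descriptions of the cells of 2 mice.

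Most carriers of the Reg genes also held Fabp1. It was seen in 87.4% and 81.8% of Reg3b carriers and in 81.4% and 69.3% of the remaining cells, or 89.3% and 88.7% against 74.0% and 61.3% after thinning. Reg1 carriers (449 and 15) held Fabp1 in 87.8% and 86.7%. For Reg4 the pattern was the opposite, since 47.6% of 21 and 16.7% of 18 Reg4 carriers held Fabp1, against 85.1% and 78.7% of the others. Pglyrp1 carriers (246 and 61) were also less often Fabp1-positive, at 71.1% and 44.3% against 90.5% and 85.5%. In leukocytes a Fabp1 UMI was seen in 15.3% and 4.08% of cells.

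Lyz1 was seen in 46.3% and 45.5% of Reg3b carriers and in 36.1% and 22.9% of other cells. Thinned to 1000 UMIs these shares were close, at 15.2% and 15.95% against 12.4% and 11.1%. Enterocyte-like cells themselves had Lyz1 at 173 and 125 CPM, where Paneth-like cells had 16286 and 4695 CPM and leukocytes 9.29 and 3.09 CPM (a UMI in 8.61% and 1.46% of cells). Reg4 carriers held Lyz1 in 81.0% and 66.7% of cells, against 39.4% and 26.6% of the others, and in 74.9% and 57.0% against 11.8% and 9.55% after thinning. Pglyrp1 carriers held Lyz1 in 48.4% and 41.0% of cells, against 36.7% and 25.5%.

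**Figure D4:**
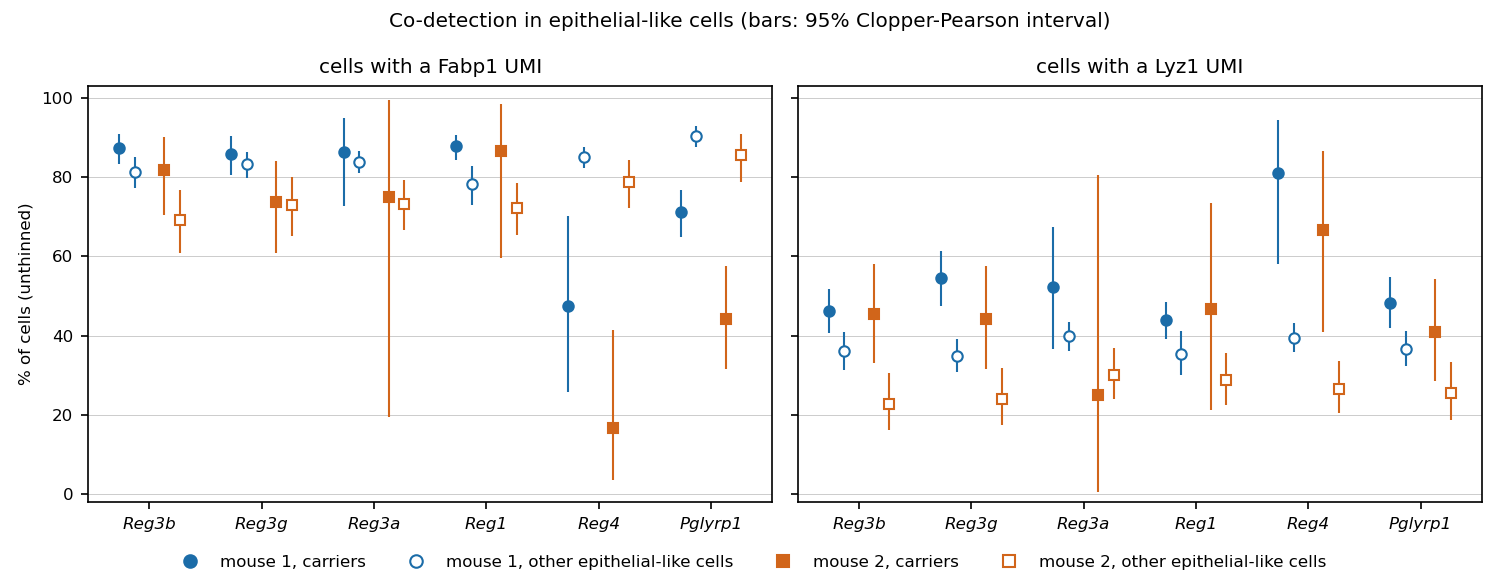
Share of epithelial-like cells with a Fabp1 or Lyz1 UMI among carriers and non-carriers of each member, in percent, by mouse, with 95% Clopper-Pearson intervals. Reg3b carriers held Fabp1 in 87.4% and 81.8% of cells, whereas Reg4 carriers held it in 47.6% and 16.7% and held Lyz1 in 81.0% and 66.7%.

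The genes whose level over 7 cell classes was most like that of each member were looked up among 5148 genes, by the lower of the Pearson r of both mice on log2(CPM + 1). With 7 points from 2 libraries these are descriptions only. For Reg3b they were Spink1 (r = 0.946 in mouse 1 and 0.972 in mouse 2), Sult1b1 and Mttp, and for Reg3g Gpa33 (0.947 and 0.974), Ifi27l2b and 2610528J11Rik. Reg1 was nearest to Nr1i3 (0.930 and 0.995), followed by Reg3b and Apoa4. Reg4 was nearest to Habp2 (0.996 and 0.983), Miat and Ambp, and Pglyrp1 to Tmem183a (0.968 and 0.979), Urod and Degs2. Reg3a, with 60 UMIs in enterocyte-like cells, had the lowest values, with Ogdh at 0.882 and 0.855, followed by Spink1 and Letm1.

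Whether other genes differ between enterocyte-like cells with more and with fewer Reg3 transcripts was tested on sums of counts per mouse. Cells of at least 1000 UMIs (572 and 128) were thinned to 1000 UMIs and ranked by Reg3b plus Reg3g UMIs. Both cut points of a split into 3 equal groups fell at 0 UMIs, so that the upper group held the carriers (189 and 40 cells) and the lower group the non-carriers (383 and 88 cells). With edgeR's quasi-likelihood test and no block, 6526 genes were tested and 0 passed an adjusted p-value of 0.05 (0% called), with 149 at an unadjusted p-value under 0.05. DESeq2 called 11. As the sums of 1 mouse share their animal and library, a blocked fit, in which each mouse is its own replicate block, is given beside it. It called 147 genes (2.25% of those tested), of which 120 (1.84%) were higher and 27 (0.414%) lower in carriers, and 141 of them had the same sign in both mice. These signs use a prior count of 0.5, so a gene with no UMI in 1 mouse still gets a sign there. Reg2, with 0 UMIs in both groups of mouse 2, had a log2 ratio of 0.89 there and is among the 141. The blocked fit has 1 residual degree of freedom for each gene and borrows the rest from other genes.

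Only 3 genes, named after their values were seen, passed when each cell was also cut to 1000 UMIs in the sums, an alternative chosen after seeing the data that leaves 2117 genes for the blocked test. Lypd8, a secreted protein that binds flagellated bacteria, was at 454.5 CPM in non-carriers and 3282 CPM in carriers of mouse 1, and at 78.1 and 390 CPM in mouse 2. Its log2 fold change was 2.76 ± 1.03 (SE; adjusted p-value 0.9995, edgeR) without the block, 2.70 ± 0.18 (adjusted p-value 9.017e-15, edgeR) with it and 1.63 ± 0.20 (adjusted p-value 0.003029, edgeR) with the cells cut. Gsta1, a glutathione transferase, was at 129.5 and 1985 CPM in mouse 1 and at 53.7 and 240 CPM in mouse 2, and its log2 fold change was 3.56 ± 0.90 (adjusted p-value 0.9995, edgeR) without the block, 3.51 ± 0.24 (adjusted p-value 1.932e-14, edgeR) with it and 2.04 ± 0.23 (adjusted p-value 0.002658, edgeR) with the cells cut. Ada, the adenosine deaminase of villus-tip cells, went the other way, at 180 and 46.8 CPM in mouse 1 and at 381 and 4.54 CPM in mouse 2, the last on 1 UMI against 156. Its log2 fold change was -3.03 ± 0.64 (adjusted p-value 0.667, edgeR) without the block, -2.55 ± 0.29 (adjusted p-value 2.128e-08, edgeR) with it and -2.54 ± 0.39 (adjusted p-value 0.0239, edgeR) with the cells cut. Each of the 3 had the same sign in 2 of 2 mice. With the cells cut, few UMIs of mouse 2 were left, in 88 non-carriers and 40 carriers. Lypd8 had 4 and 12 there, Gsta1 9 and 13 and Ada 59 and 0. In mouse 1 they had 148 and 212, 47 and 100, and 145 and 17. Without cells over 1% mitochondrial UMIs, the blocked log2 fold change of Lypd8 was 1.58 and that of Ada -2.33, both still called. The Ada and Gda led sub-cluster gave 45 non-carriers and 9 carriers in mouse 1 and 31 and 4 in mouse 2, and the S100g and Oat led one, of which Gsta1 and Lypd8 were leading genes, gave 47 and 32 and 11 and 11.

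The 5 genes with the lowest p-values in each direction without the block, given as values because none passed, were Gmds, 2210407C18Rik, Gpx1, Tspan1 and Ms4a18 on the higher side and Ada, AC167229.1, Pcmtd1, Cnn3 and Clic6 on the lower side. Gmds, an enzyme of fucose synthesis, had 19.7 CPM in non-carriers and 149 CPM in carriers of mouse 1 and 14.7 and 190.5 CPM in mouse 2, a log2 fold change of 3.20 ± 0.33 (adjusted p-value 0.122 without and 4.081e-11 with the block, edgeR). Gpx1, a glutathione peroxidase, had a log2 fold change of 1.62 ± 0.26 (adjusted p-value 0.4325 without and 1.799e-08 with the block, edgeR). 2210407C18Rik had 3.59 ± 0.46 (adjusted p-value 0.253 and 9.017e-15, edgeR). Tspan1 had 41 and 4 UMIs in carriers of mouse 1 and mouse 2 against 2 and 1 in non-carriers, and Ms4a18 had 30 and 4 against 2 and 0. On the lower side, Pcmtd1 had a log2 fold change of -1.01 ± 0.27 (adjusted p-value 0.9995 without and 0.002339 with the block, edgeR). AC167229.1 and Cnn3 each had 3 and 2 UMIs in carriers, against 61 and 11 and against 49 and 11 in non-carriers, and Clic6 had 0 and 1 against 32 and 8. All 10 passed with the block on all cells. Leaving out cells over 1% mitochondrial UMIs in the blocked fit lowered the log2 fold change of 2210407C18Rik from 3.73 to 1.83, of Gmds from 3.09 to 2.06 and of Gpx1 from 1.60 to 0.75, all still called, while Tspan1, Ms4a18 and Clic6 were no longer tested. Without cells with a Ptprc UMI, AC167229.1 was not called (adjusted p-value 0.1634, edgeR), and Cnn3 and Clic6 were not tested. With each cell cut to 1000 UMIs, 2210407C18Rik, Gpx1 and Pcmtd1 were not called (0.0551, 0.3609 and 0.6003), Ada was, and the other 6 were not tested.

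**Figure D5:**
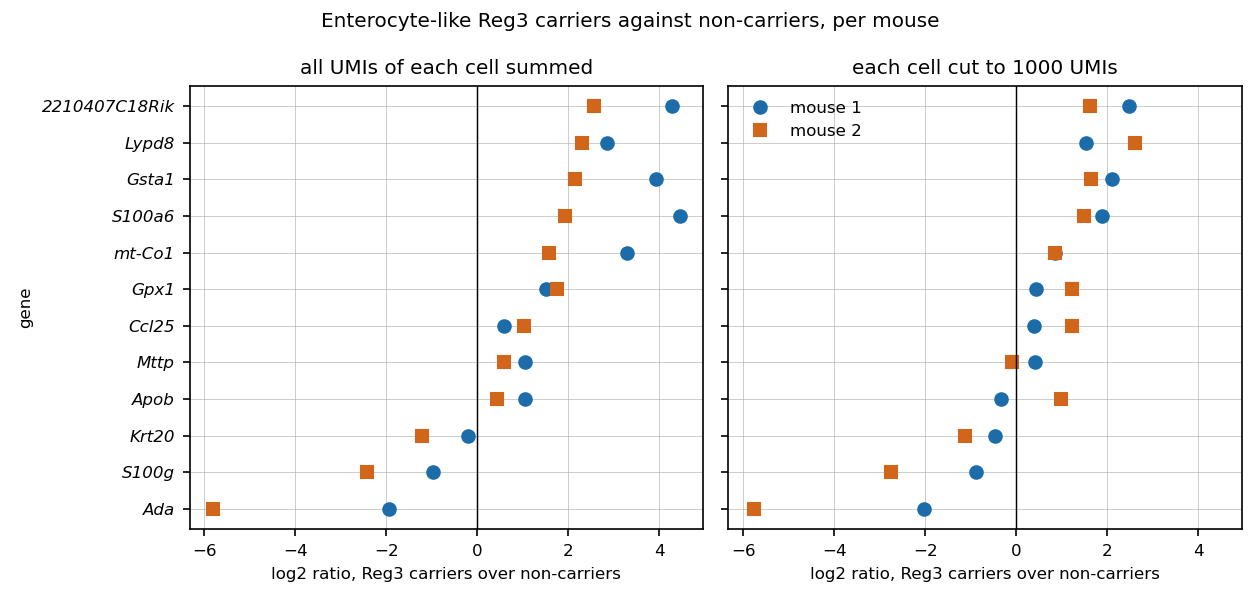
Log2 ratio of carriers over non-carriers of Reg3 transcripts for 12 genes, 1 point per mouse, from all UMIs (left) and with each cell cut to 1000 UMIs (right), both with a prior count of 0.5. Carriers are cells with a Reg3b or Reg3g UMI after thinning to 1000 UMIs. Lypd8 (2.85 and 2.31) and Gsta1 (3.94 and 2.14) were above 0 and Ada (-1.93 and -5.81) below 0 in both mice with all UMIs, and each kept its sign with the cells cut, where Ada had 0 UMIs in carriers of mouse 2.

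Mitochondrial transcripts were also among the genes with the lowest p-values in the blocked fit, with mt-Co1 at a log2 fold change of 2.51 ± 0.22 (adjusted p-value 1.746e-11, edgeR), against 2.36 ± 0.43 (adjusted p-value 0.4325, edgeR) without the block. They made up 0.0890% of UMIs of non-carriers and 0.823% of those of carriers in mouse 1, and 0.195% and 0.5415% in mouse 2. In carriers, the 5 cells with most mitochondrial UMIs held 90.4% and 91.7% of them. The 5 cells with most Reg3b and Reg3g UMIs, ranked separately, held 40.4% and 75.9% of those. Whether the same cells led both rankings was not tested. The deepest single cell held 10.9% and 9.25% of all UMIs of the carriers. Without the cells over 1% mitochondrial UMIs the blocked fit called 69 genes, 52 of them shared with the 147. Acinar markers made up 0.150% of UMIs in non-carriers and 0.383% in carriers of mouse 1 and 0% in both groups of mouse 2. The part of the cells rich in mitochondrial UMIs in the called genes was not tested beyond these alternatives.

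Lists of genes were read from both fits, and without the block no gene of any list passed. With the block, 3 of 12 tested innate-defence and IL-22- or STAT3-related genes were higher and 0 lower in carriers: Lypd8, Ccl25 (a chemokine that draws lymphocytes to the small intestine; log2 fold change 0.78 ± 0.17, adjusted p-value 0.00413, edgeR) and Nlrp6 (an inflammasome sensor; 1.29 ± 0.35, adjusted p-value 0.0337). Over all genes tested, 1.84% were called higher and 0.414% lower in this fit. Nlrp6 differed in mouse 1 alone (log2 ratios 1.63 and 0.07 by mouse), and its call was lost with the block when cells with a Ptprc UMI were left out (adjusted p-value 0.4135, edgeR). The median of the list was 0.22, against -0.00015 over all genes tested. Of 14 fat-absorption genes 2 were higher, Apob (0.88) and Mttp (0.94), which build and load lipoprotein particles, and 1 was lower, Apoc3 (-0.54). With each cell cut to 1000 UMIs the log2 ratio of Apob turned to -0.34 in mouse 1, that of Mttp to -0.08 in mouse 2 and that of Apoc3 to 0.10 in mouse 2. With the block, Apob, Mttp and Apoc3 were not called without the cells over 1% mitochondrial UMIs (adjusted p-values 0.908, 0.7147 and 0.3598, edgeR), nor were Apob and Apoc3 without cells with a Ptprc UMI (0.1198 and 0.05064). Of 5 villus-tip genes 2 were lower, Ada and the keratin Krt20 (-0.65 ± 0.17, adjusted p-value 0.0306, edgeR), with a list median of -0.62. Krt20 was at -0.20 in mouse 1 and -1.21 in mouse 2, and its call was lost with the block without cells with a Ptprc UMI (adjusted p-value 0.1189, edgeR) and with the cells cut to 1000 UMIs (0.1336). None of 19 MHC class II and interferon genes, 15 sugar- and peptide-absorption genes or 3 cell-cycle genes passed with the block on all cells, with medians of 0.13, 0.05 and 0.49. Without the cells over 1% mitochondrial UMIs, the blocked fit called Isg15 of the interferon list (0.54, adjusted p-value 0.0158, edgeR). It also called Klf4 of the villus-tip list (-0.62, adjusted p-value 0.0397, edgeR). Neither was called with the block without cells with a Ptprc UMI or with the cells cut. Reg2 was the 1 tested gene among the other Reg and Pglyrp genes, and was higher with the block (1.78 ± 0.29, adjusted p-value 4.271e-05, edgeR). This rests on mouse 1 alone, at 58.6 and 202 CPM, as mouse 2 had no Reg2 UMI.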

How the data were processed

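Counts of 2 libraries from 1 group (APC) were analysed. The authors deposited UMI counts of each gene in each barcode, not normalized, made with Cell Ranger 6.1.2 on mm10 (10x 3′ v3, DAPI sort). The annotation release is not given in the sources used here. Barcodes with over 100 genes, over 400 UMIs, under 5% mitochondrial and under 10% haemoglobin UMIs were kept. This removed 1704 and 1843 barcodes. The 3′ counts do not grow with gene length, and levels are compared between cells, not between genes.

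RPCA integration was run with Seurat 5.3.0 (R 4.3.3; genes in at least 3 cells, 2000 features, 30 dimensions, resolution 0.8) with the members, Fabp1 and Lyz1 (8 genes) left out of the features. Epithelial clusters were integrated a second time (k.weight 50). A marker counted when seen in at least 10% of the cells of a cluster at a log2 fold of at least 1 over the rest, and a name needed 3. Epithelial names also needed 33% of their list and under 50% of cells with Ptprc. The 33% rule was dropped for other classes after cluster names were seen. Names were rebuilt here and may differ from those of the study. Scrublet (scanpy 1.11.5) called 1 cell and 0 cells and so did not work. Doublets were kept, and leaving out the 8% highest scores (635 and 557 cells) was an alternative.

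The members and lists were chosen with earlier results of these data known. Named genes were all members, the largest changes past the threshold or, with none, the 5 lowest p-values in each direction, and 2 to 4 of each list. Sums of carriers and non-carriers were tested with edgeR 4.0.16 (TMM, filterByExpr, two-sided, Benjamini-Hochberg over all genes tested), and with DESeq2 1.42.0 as an alternative. Members were in the fit without a test. Sums with the same number came from 1 animal and are paired. Their deviations from the group means correlated at 0.464 in each mouse, which are mirror images with 2 mice. The test without the block was also run on simulated data with no effect of the mouse. Of 100 genes changed 4-fold and 100 changed 16-fold it recovered 77 and 91, with 13 false calls among 6297 genes. The blocked fit was not tried on simulated data. P-values without the block rest on the spread between 2 mice and on spread borrowed from other genes. Those with the block rest mostly on the borrowed part, so their SE can lie far below the spread of the 2 mice. For Ada the blocked SE was 0.29, with log2 ratios of -1.93 and -5.81 by mouse. Promoters came from RefSeq (GRCm38.p6, all 6 members matched), aligned with Biopython 1.88.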

Additional observations from a re-analysis of the deposited data

Results flagged for a closer look

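The members also had UMIs in the 1704 and 1843 barcodes that the limits on genes, UMIs, mitochondrial and haemoglobin content left out, above their level in the leukocytes kept from the same mouse. These barcodes enter no comparison of the report and were singled out for that reason. Reg3b stood there at 323.6 CPM in mouse 1 and 65.07 CPM in mouse 2, and Reg3g at 121.3 and 23.44 CPM. Of these UMIs, 751 of 1492 Reg3b and 439 of 559 Reg3g were in 1 barcode each in mouse 1. Reg1 stood at 313.2 and 2.776 CPM, and Reg3a at 14.75 CPM in mouse 1. Reg4 stood at 4.989 and 28.99 CPM, with 59 of 94 UMIs of mouse 2 in 1 barcode. Pglyrp1 stood at 64.21 and 20.66 CPM. The difference from leukocytes carries no test.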

How the results depend on the processing

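The count of genes that differed between Reg3 carriers and non-carriers depended on the fit. It was 0 in the fit without a block, 147 with the mouse as a replicate block, 62 (55 higher, 7 lower; 44 shared with the block) with no filter on low counts and 11 with DESeq2. It was 0 with the ranking at 2000 UMIs, without cells with a Ptprc UMI and with mitochondrial UMIs under 10%, at 111 to 125 genes with an unadjusted p-value under 0.05. A split at the median gave the same groups and values. Among alternatives chosen after seeing the data, cutting each cell to 1000 UMIs gave 0 without and 3 with the replicate block, leaving out cells over 1% mitochondrial UMIs gave 69 with the block (41 higher, 28 lower) and leaving out cells with a Ptprc UMI gave 108 with the block (97 higher, 11 lower; 91 shared). The mouse left out 1 at a time gives ratios with no test. Mean Reg3g in enterocyte-like cells moved from 923 to 785 CPM with mitochondrial UMIs under 10%, 826 CPM without integration and 829 CPM without cells with a Ptprc UMI. Thinning to 500 and 2000 UMIs, which also changes the cells deep enough to enter, moved shares. Reg3b carriers with Reg3g went to 56.8% at 2000, and Reg3g carriers with Reg3b to 66.98% and 74.9%. Reg3b carriers with Fabp1 went to 87.2% and 86.96%, and Reg3b carriers with Lyz1 to 9.58% and 25.7%. The causes of these shifts were not tested. Of the list genes, which were not called without the block, some log2 fold changes turned sign: with the cells cut, Slc5a1 from 0.43 to -0.24 (blocked, from 0.42 to -0.13) and, blocked, Apob from 0.88 to -0.01; Pcna from -0.22 to 0.33 with the ranking at 2000 UMIs and 0.23 with mitochondrial UMIs under 10%; and in mouse 2 alone Birc5 from 1.25 to -1.22, Tyms from 0.43 to -0.24 and Ccl20 from -0.68 to 0.00039. Depth limits Reg3a and Reg4 outside their main class, where a few UMIs set the value.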
